A study of Brassica rapa and Brassica oleracea and Brassica napus with 3 samples.

Results

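The unanchored genes of *B. oleracea* are annotated genes on sequence that the assembly does not place on any of its 9 chromosomes. They were chosen by identifier alone, as gene entries starting with BolCnng, and number 620 of the 58997 genes of the JZS accession with methylation data. The other 58377 genes carry the name of a chromosome, C01 to C09. The unanchored identifiers run from BolCnng000010.2J to BolCnng006790.2J and show neither the scaffold nor the position of a gene. No gene name or function is attached to them in the sources used here, so members are described by their values, their coding exons and their place in identifier order.

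Cytosine methylation in plants occurs in the CG, CHG and CHH contexts, where H is any base except G. It is dense over transposons and other repeats, where it accompanies silencing, and lower around the start of most genes. Many genes also carry CG methylation inside their bodies. Sequence left outside the chromosomes of a plant assembly is often repetitive.

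DNA methylation was measured by bisulfite sequencing (BS-seq), in which unmethylated cytosines are read as thymines. The *B. oleracea* group was 1 library of young leaves from JZS seedlings, and a library of *B. napus* ZS11 seedlings served for a brief comparison. The labels name no treatment, and both libraries came from seedlings 14 d old, kept in hydroponics with 16 h of light and 8 h of dark at 22 °C and 18 °C. For each gene the data give the methylated fraction of cytosines in 12 bins, of which bins 1 to 4 cover the upstream flank, bins 5 to 8 the gene body and bins 9 to 12 the downstream flank. The flanks were taken to be 2 kb wide. Levels are given in percent, and cytosine contexts are not separated. No read depth is known for any bin, and a bin at 0 may be unmethylated or merely thinly covered. With 1 library there were no replicates, and genes and chromosomes of that library do not stand in for them, so no test was made. The spread given beside each value is that of the 9 chromosomes, or of 91 consecutive blocks of 620 genes along the chromosomes, and describes variation within this library only.

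The unanchored genes were mostly without data. Of their 7440 bins, 4624 (62.2%) had no value, against 6.61% of the bins of C01 to C09, where single chromosomes held between 5.27% (C03) and 9.17% (C07). None of the 91 chromosomal blocks came near this share, the highest being 22.8% in the block from BolC07g018610.2J to BolC07g024800.2J. No bin had a value in 184 unanchored genes, 29.7% of them (95% exact Clopper-Pearson interval 26.1% to 33.4%, counting error only). The same held for 2.61% of the genes of C01 to C09 and for 2.89% of all genes. All 12 bins had a value in 82 unanchored genes, 13.2% (interval 10.7% to 16.1%), against 83.4% on C01 to C09 and 82.6% over all genes. The remaining 354 unanchored genes had between 1 and 11 valued bins, with 15 to 56 genes at each number.

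**Figure D1:**
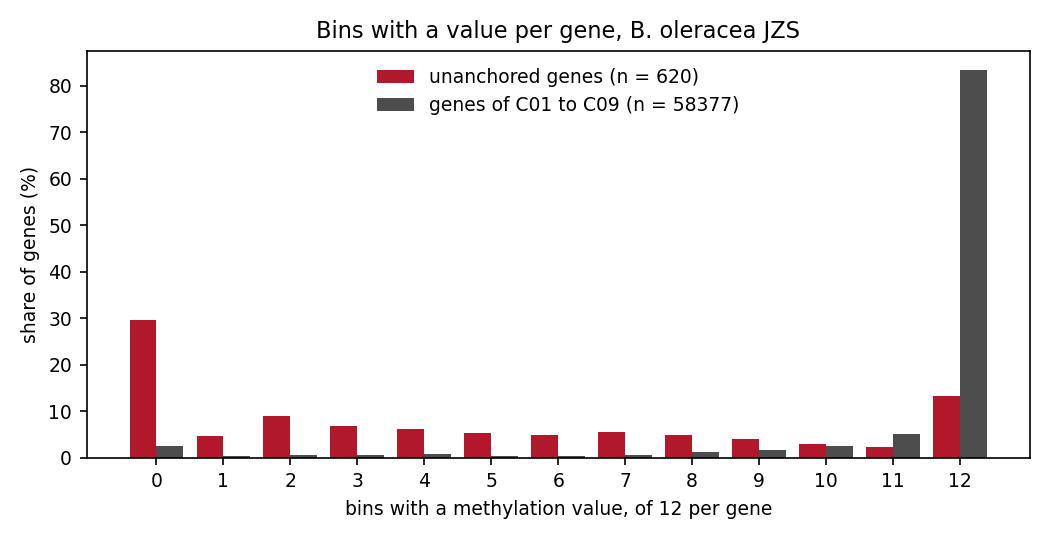
Share of genes (%) by the number of their 12 bins that hold a methylation value, for the 620 unanchored genes (red) and the 58377 genes of C01 to C09 (grey) of *B. oleracea*. The unanchored genes have their highest bar at 0 valued bins (29.7%) and a lower peak at 12 (13.2%), while 83.4% of the genes of C01 to C09 have all 12.

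A region level was the mean of the valued bins of that region, taken where at least 2 of its 4 bins had a value. By this requirement 403 unanchored genes had a level in at least 1 region, 33 had values but no level, and 144 had all 3 levels. An upstream level existed for 293 of the 620 genes, a gene body level for 235 and a downstream level for 282. Across the members, 64.7% to 67.6% of values were missing in each of the 4 gene body bins, and 56.0% (bin 9) to 65.2% (bin 12) in the flank bins. On C01 to C09 the shares were 7.36% to 7.94% in the gene body bins and 5.41% to 6.70% in the flank bins.

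Missing values were unevenly spread along the identifier order. In the 4 successive sets of 155 unanchored genes, from the lowest identifiers to the highest, 32.96%, 59.6%, 75.8% and 80.3% of bins had no value. Genes without any value numbered 12, 27, 60 and 85 in these sets. The longest stretch of them held 10 genes, from BolCnng005090.2J with 2 coding exons to BolCnng005190.2J with 4. The longest on the chromosomes held 16 genes, on C03, but was sought among 58377 genes. A longest stretch can grow with the number of genes searched, so the lengths are not directly comparable. Mean gene body levels in the same 4 sets were 13.6%, 14.3%, 12.3% and 13.4% over 108, 58, 43 and 26 genes. The first of these means was 19.5% over 75 genes without a stretch of 33 almost unmethylated genes, which is described further on and called the run of 33.

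**Figure D2:**
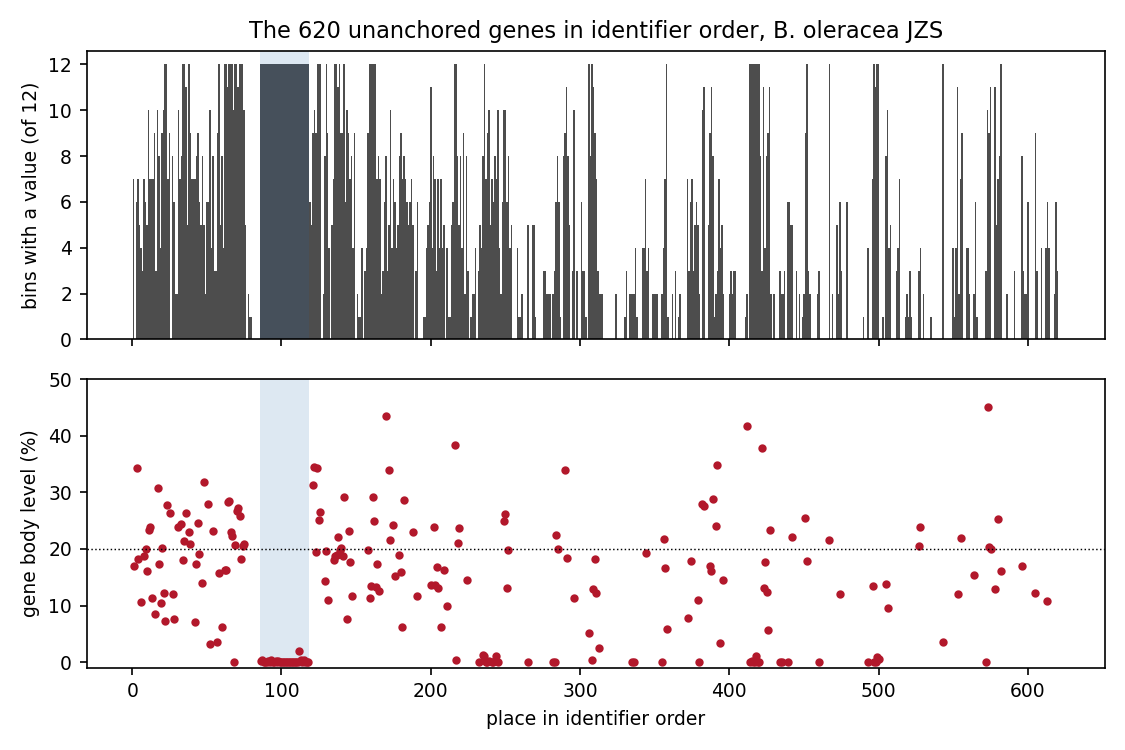
The 620 unanchored genes in identifier order, with the number of valued bins of 12 (upper panel) and the gene body methylation level in percent for the 235 genes that have one (lower panel, dotted line at 20%). Values become sparser towards the higher identifiers, and the shaded run of 33 genes has all 12 values with gene bodies near 0.

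Where values existed, the unanchored genes lacked the dip that marked the genes of the chromosomes. Averaged over the genes with a value in each bin, their profile stayed between 12.4% in bin 8 and 14.3% in bin 5, a ratio of 1.16. Over C01 to C09 the profile had its lowest mean, 8.09%, in bin 5, the first bin of the gene body, and its highest, 13.7%, in bin 1, a ratio of 1.70. Each of the 9 chromosomes was lowest in bin 5, with ratios between 1.61 and 1.82. In the unanchored genes bin 5 was the highest of the 12, at 1.09 times bin 1. In the 91 chromosomal blocks bin 5 lay between 0.369 and 0.876 times bin 1, and the ratio of highest to lowest bin lay between 1.22 and 2.71, above the unanchored value in every block.

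The same flat profile was seen in subsets of the members. Without the run of 33 it lay between 14.6% in bin 8 and 16.9% in bin 5. In the 49 unanchored genes with 12 values outside the run it lay between 14.3% and 17.5%, with 14.99% in bin 1 and 14.8% in bin 5. The 48665 chromosomal genes with 12 values had 13.3% in bin 1 and 7.47% in bin 5. The flatness was thus also present among genes with no missing bin.

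**Figure D3:**
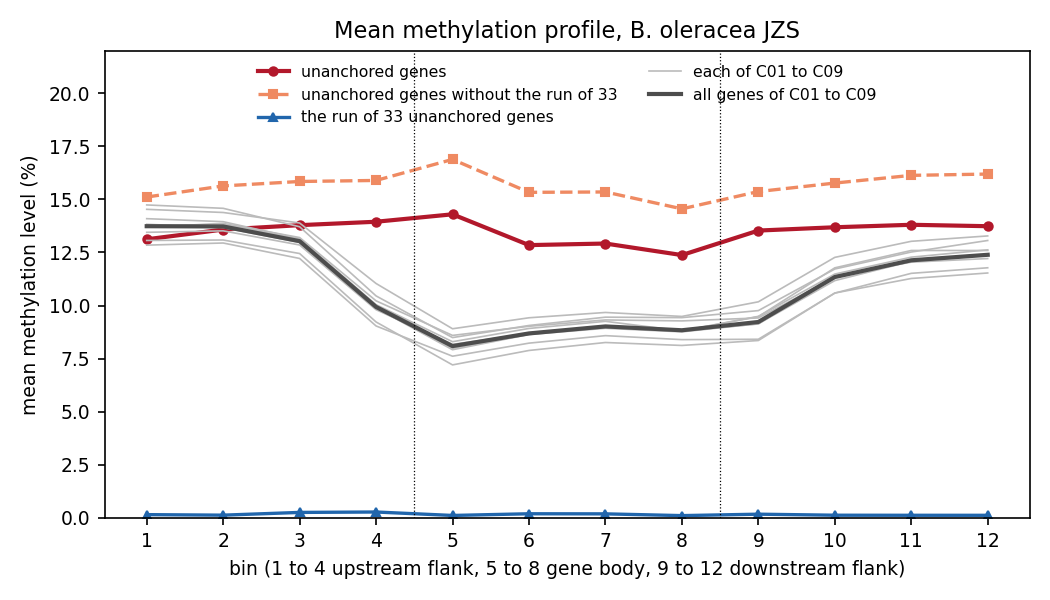
Mean methylation level (%) in each of the 12 bins for the unanchored genes (red), the unanchored genes without the run of 33 (orange, dashed), the run itself (blue), each of C01 to C09 (thin grey) and all genes of C01 to C09 (dark grey), with dotted lines at the gene ends. The unanchored profile stays between 12.4% and 14.3%, the chromosomes all fall to their lowest value in bin 5, and the run lies near 0 in every bin.

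By region, the largest difference from the chromosomes was in the gene body. The mean gene body level was 13.5% over 235 unanchored genes (gene SD 11.1), against 8.79% on C01 to C09, where the chromosome means had an SD of 0.483 and ran from 7.96% (C03) to 9.53% (C02). The difference was 4.71 percentage points, and the medians were further apart, at 13.8% for the unanchored genes against 3.52% for C01 to C09. Downstream of the gene the unanchored mean was 13.8% (n = 282, gene SD 10.9), against 11.4% on C01 to C09 with chromosomes between 10.6% and 12.3%. Upstream it was 13.9% (n = 293, gene SD 11.7), against 12.7% with chromosomes between 11.9% and 13.6%, a difference of 1.22. All 3 unanchored means lay above every chromosome, the upstream mean by the smallest margin, but this depended on which genes had values. Among genes with 12 values the differences from C01 to C09 were -2.75 upstream, 0.901 in the gene body and -0.647 downstream, and with C01 to C09 weighted to the members' valued bins they were -2.65, 0.523 and -2.55. Without the run of 33 the means were 15.7% in each of the 3 regions, and the gene body difference was 6.89.

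Stretches of chromosome with levels as high as those of the unanchored genes did exist. Of the 91 blocks of 620 chromosomal genes, 9 had a gene body mean of at least the unanchored one, the highest being 17.0% from BolC08g006210.2J to BolC08g012400.2J. Upstream means reached or passed the unanchored mean in 36 blocks. None of these blocks was flat, however, since the gene body minus upstream difference of means lay between -5.76 and -2.26 percentage points in all 91. In the unanchored genes it was -0.43, and 0.00903 without the run. Gene body levels as high as theirs were thus found in some blocks, and a gene body mean as near to the upstream mean in none. All blocks had far fewer missing values, at most 22.8%. Chromosomal genes with 4 to 7 valued bins averaged 19.4% upstream and 17.7% in the gene body. The members of that class had 16.1% and 14.9%. With 8 to 11 valued bins the means were 17.0% and 14.7% on C01 to C09, and 17.4% and 18.1% in the members. With 1 to 3 they were 18.5% and 13.4% on C01 to C09, and 11.6% and 10.4% in the members. The part of missing values in the flatness was not tested.

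**Figure D4:**
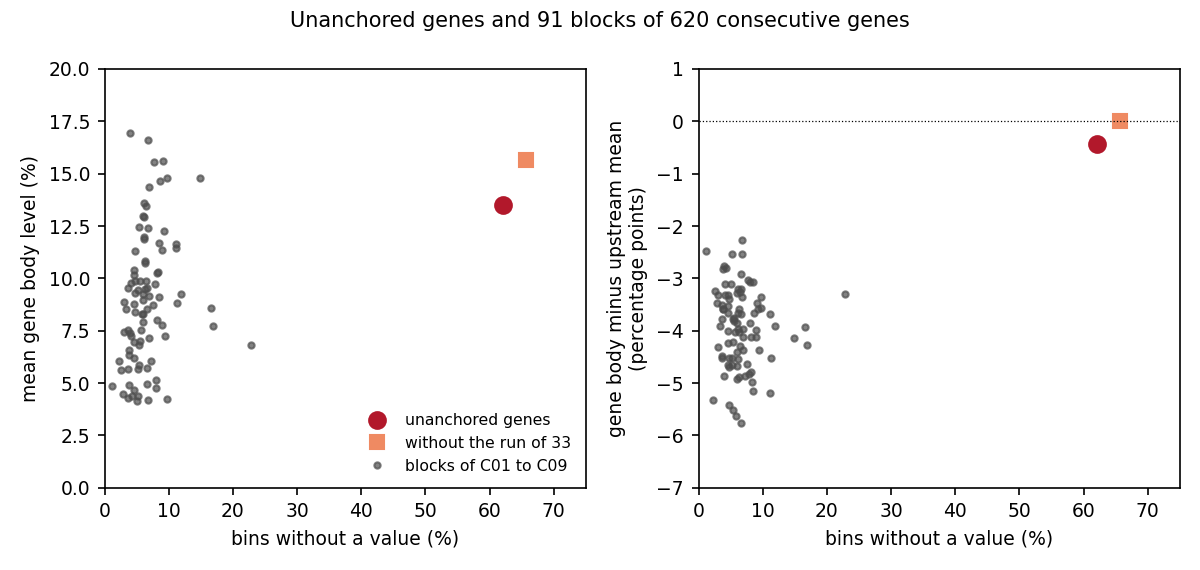
Unanchored genes with (red) and without (orange) the run of 33, and 91 blocks of 620 consecutive genes of C01 to C09 (grey), by the share of bins without a value (horizontal axes, %) and, on the vertical axes, the mean gene body level (%, left) or the gene body minus upstream mean (percentage points, right). The unanchored genes stand apart from all blocks in missing values and in the gene body minus upstream difference, but not in mean gene body level.

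On average, the difference within single genes gave the same picture. In the 180 unanchored genes with both levels, gene body minus upstream averaged -0.06 percentage points, with a median of -0.09. On C01 to C09 it averaged -3.80 over 53950 genes, and single chromosomes ran from -4.12 to -3.37. The 2 levels were within 5 points of each other in 62.2% of the unanchored genes, against 42.0% of the chromosomal genes. Without the run this share was 53.7% of 147 genes. Gene bodies above their upstream flank made up 39.4% of the unanchored genes and 37.4% of the chromosomal ones. Without the run the share was 43.5%, above the 36.3% to 38.6% of the 9 chromosomes. It was not above all of the 91 blocks, of which 1 reached it, at 43.6%. The share with the run was reached in 23 blocks.

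Gene bodies with a level of 20% or more were called highly methylated. They were found in 72 of 235 unanchored genes, 30.6% (interval 24.8% to 37.0%), against 18.3% on C01 to C09 and 18.4% over all genes. Single chromosomes ran from 15.4% (C03) to 20.7% (C02), and 13 of the 91 blocks reached the unanchored share. At least 20% was also found upstream in 31.7% of unanchored genes, against 25.6% over all genes, and downstream in 26.6%, against 22.2%. Among the 144 unanchored genes with all 3 levels, 18 (12.5%) were at 20% or more in each region, against 5.06% on C01 to C09 and 5.08% over all genes. An upstream flank of 20% or more with both other regions under 20% was found in 9 unanchored genes (6.25%), against 13.3% on C01 to C09.

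The unanchored genes exceeded the chromosomes at intermediate levels. Gene bodies between 10% and 25% made up 14.0% (10% to 15%), 17.4% (15% to 20%) and 16.2% (20% to 25%) of the unanchored genes, against 5.52%, 5.88% and 6.10% of the genes of C01 to C09. Gene bodies of at least 30% were about as frequent in both, at 5.96% (14 genes) against 6.84%. Weakly methylated gene bodies, between 1% and 5%, were the largest class on the chromosomes, at 30.02%, and made up 4.26% of the unanchored genes. Levels under 1% were similar in share, 27.7% against 28.5%, but 32 of the 65 unanchored genes concerned belonged to the run of 33. Outside it the share was 16.3%.

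**Figure D5:**
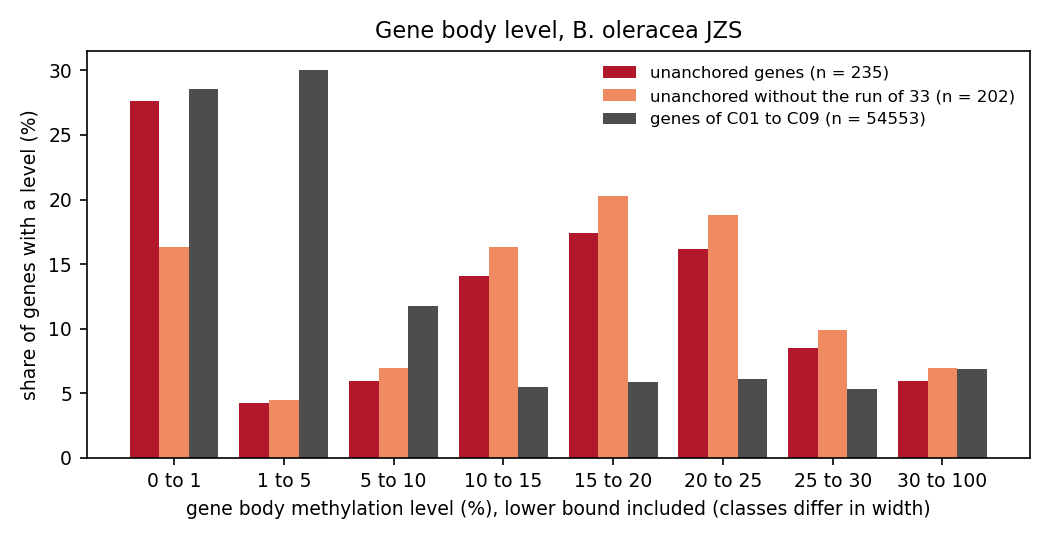
Share of genes with a gene body level (%) in 8 classes of that level (%, classes of unequal width), for the unanchored genes (red, n = 235), the unanchored genes without the run of 33 (orange, n = 202) and the genes of C01 to C09 (grey, n = 54553). The unanchored genes exceed the chromosomes in the classes from 10% to 30% and fall short of them between 1% and 5%, where they hold 4.26% against 30.02%.

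Levels varied with the number of valued bins. On C01 to C09 the mean gene body level was 17.7% in genes with 4 to 7 valued bins, 14.7% with 8 to 11 and 8.05% with 12. The unanchored genes had 14.9%, 18.1% and 8.96% in these classes, and 14.9% in the last without the run. Between 4 and 12 valued bins, chromosomal genes with fewer values thus had higher levels, while the unanchored genes were highest with 8 to 11. When C01 to C09 was weighted to the valued bins of the unanchored genes, the gene body difference shrank to the 0.523 percentage points given above and the difference in the share of highly methylated gene bodies to 0.907. Beyond this weighting, the part of missing values in the differences of level was not tested. The share of valued bins at exactly 0 was 14.5% (408 of 2816) in the unanchored genes, against 18.3% on C01 to C09 with chromosomes between 17.1% and 19.5%.

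Among the 35 unanchored genes with 12 values, a gene body of at least 5% and a place outside the run, no bin of 420 was at 0, and gene bodies ran from 5.15% over a median of 20.5% to 38.4%. The highest was BolCnng002210.2J, a gene of 3 coding exons, with 8.73%, 11.8%, 35.7% and 63.5% in its upstream bins. Its gene body bins had 46.9%, 36.6%, 34.1% and 36.1%, and its downstream bins had 33.9%, 33.4%, 25.5% and 24.3%. Methylation there was highest just before the gene, the place where the chromosomal profile was falling. BolCnng001260.2J, with 5 coding exons, was high in all 3 regions, with levels of 37.4% upstream, 34.3% in the gene body and 29.0% downstream.

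In BolCnng001440.2J, a gene of 2 coding exons, the gene body level of 29.2% stood above both flanks, at 18.0% upstream and 15.9% downstream. The single-exon gene BolCnng001630.2J had a gene body of 29.1% with 33.3%, 41.7%, 27.7% and 13.9% in its 4 bins, and 7.40% in the bin just after it. BolCnng000650.2J, with 4 coding exons, had 20.7% upstream, 28.4% in the gene body and 28.3% downstream. It lies in the longest stretch of highly methylated gene bodies, 4 genes from BolCnng000640.2J (28.3%) to BolCnng000670.2J (22.3%). A further stretch of 4, from BolCnng000690.2J to BolCnng000720.2J, follows after BolCnng000680.2J, whose gene body level was 0. These 3 genes were named after their values were seen. The longest such stretch on the chromosomes held 12 genes, on C07, but was sought among 9986 highly methylated gene bodies against 72 of the members.

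The 72 highly methylated members had between 2 and 12 valued bins, with a median of 9, and 18 of them had all 12. The 3 highest levels came from genes with gaps, which were singled out after their values were seen. BolCnng006160.2J reached 45.1% with 10 valued bins, and its first gene body bin alone had 88.0%. BolCnng001730.2J followed at 43.5% and BolCnng004340.2J at 41.7%, each from 2 valued gene body bins of exactly the same value. Such equal neighbours were frequent among the unanchored genes, in 96 of 1768 adjacent pairs of bins above 0 (5.43%), against 0.324% on C01 to C09. In genes with 1 to 11 values the shares were 8.73% against 2.22%. The number of cytosines and reads behind such values is unknown.

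At the 20% threshold, BolCnng002950.2J (20%), BolCnng006180.2J (20.03%) and BolCnng001420.2J (20.1%) fell just inside, and BolCnng000090.2J (19.96%), BolCnng002580.2J (19.8%) and BolCnng001600.2J (19.8%) just outside. BolCnng002950.2J shows what a level at the threshold can consist of, since its gene body bins were 40.0% and 0 with 2 bins missing. BolCnng002580.2J was even by contrast, with 19.0%, 20.1%, 20.1% and 20.2%.

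Few members had the shape usual on the chromosomes, with methylated flanks and a low gene body. A gene body under 5% with at least 1 flank of 5% or more was found in 3 of the 82 unanchored genes with 12 values (3.66%; 6.12% of 49 without the run), against 45.7% of such genes on C01 to C09. A gene body under 5% with any flanks was found in 47 of the 82 genes (57.3%), 33 of which were the run, against 60.8% on C01 to C09. Outside the run it was found in 14 of 49 genes (28.6%). BolCnng005810.2J had 18.8% upstream, 3.58% in the gene body and 13.7% downstream. BolCnng003200.2J, with 22 coding exons, had 14.0% upstream, 0.460% in the gene body and 16.1% downstream, with 24.0% in bin 1, 2.89% in bin 4 and 40.1% in bin 12. BolCnng002220.2J had 3.08% upstream and 0.317% in the gene body, with 46.2% in its last downstream bin. It is the neighbour, in identifier order, of BolCnng002210.2J, the member with the highest gene body level among those with 12 values.

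Both flanks were under 5% in 44 of the 82 unanchored genes with 12 values (53.7%; 22.4% of 49 without the run), against 18.9% on C01 to C09. Of these 44 genes, 40 belonged to the run of 33 or to a shorter stretch of 7. Both were found as the longest stretches of members with 12 values, and were singled out after their low values were seen. The gene bodies of the 44 genes thus largely describe these stretches. The highest was 2.05%, in BolCnng001120.2J, followed by 1.17% in BolCnng002410.2J and in BolCnng004400.2J. BolCnng005310.2J had 0.833% and BolCnng005320.2J 0.591%, the last with 1.42% upstream.

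The longest stretch of unanchored genes with all 12 values was the run of 33, from BolCnng000860.2J to BolCnng001180.2J, and it was almost unmethylated. Its 396 bins averaged 0.161%, the highest being 3.58% in BolCnng001120.2J. Median levels were 0.153% upstream, 0.0504% in the gene body and 0.119% downstream. Exactly 0 was found in 110 of the 396 bins (27.8%), and the median of the others was 0.130%. The run, and the genes named beside it, were singled out after the values were seen.

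At its start no change of level could be seen, because values were lacking. The gene before it, BolCnng000850.2J, had no value, and the 8 members before it had 4 values in all, each 0. Its first gene, BolCnng000860.2J, had 0.0858% upstream, 0.161% in the gene body and 0.183% downstream, and its last, BolCnng001180.2J, had 10 of 12 bins at 0. After the run the level changed at once. The next gene, BolCnng001190.2J, had 14.0% upstream and 15.7% downstream. The 8 members after the run held 75 values with a mean of 23.9% and none at 0. The place of the run beside these genes is one of identifier order, and whether they share a scaffold cannot be told from the identifiers.

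Genes with 12 values and all 3 region levels under 1% were called low throughout, a definition made after the values were seen. They numbered 38 of 82 unanchored genes (46.3%), 31 of them in the run, against 974 of 48665 on C01 to C09 (2.00%) and 2.08% over all genes. Up to 26 followed each other in the run, against at most 4 on any chromosome. With a limit of 5% in place of 1%, the whole run of 33 qualified, and the longest chromosomal stretch was 9 genes on C05. The low chromosomal genes had 56.1% of their bins at 0, and the median of the others was 0.416%. The low unanchored genes had 29.8% at 0 and a median of 0.123% in the others. Their low levels were thus made up of fewer bins at 0 and of smaller values above 0. Both features also depend on the number of cytosines and reads behind a bin. That number is not given, and its part was not tested. The lowest value above 0 was 0.0088% in the run, against 0.0199% in all chromosomal genes with 12 values.

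The run also differed in gene structure. Single-exon genes made up 14 of its 33 members (42.4%), against 13.2% of the genes of C01 to C09, and no member had more than 5 coding exons. All 67 coding exons of the run had a level, with a mean of 0.240% and a median of 0.

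Over all 620 members the median was 2 coding exons, against 4 on C01 to C09. Members with 2 to 4 coding exons had the highest mean gene body level, 15.6% over 164 genes, against 10.7% on the chromosomes. Of the 72 highly methylated members, 37 (51.4%) had 2 coding exons, as did 105 of the 235 members with a gene body level (44.7%). On C01 to C09 these shares were 30.8% and 20.2%. Single-exon members had 6.42% over 28 genes, against 6.41% on C01 to C09, and 12.7% over the 14 outside the run. Members with 5 to 9 coding exons had 11.5% over 38 genes, against 8.04%. Of the 23 members with 10 or more, 9 had no value and only 5 had a gene body level, 4 at 0 and the fifth BolCnng003200.2J at 0.460%. The mean of these 5 was 0.0920%, against 5.73% on C01 to C09. With C01 to C09 weighted to the exon numbers of the members, the gene body difference was 3.83 percentage points.

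Coding exons have bins of their own in the data. Of the 2144 coding exons of the members, 421 (19.6%) had a level, against 84.5% on C01 to C09. Their mean was 13.9%, against 7.24%, with chromosomes between 6.52% and 7.81%, and the medians were 12.4% against 0.329%. A level of at least 20% was found in 31.6% of the members' exons, against 13.8%. Among coding exons with a level, the difference between unanchored and chromosomal genes was thus also present. Exon levels were not weighted to valued bins, a weighting that shrank the gene body difference from 4.71 to 0.523 percentage points.

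Members that follow each other in identifier order had correlated gene body levels. Over 150 such pairs with a gene body level in both genes, Pearson's r was 0.617 and Spearman's rho 0.618. Without the run r was 0.418 and rho 0.392 over 118 pairs, against 0.219 and 0.183 over 52712 pairs on C01 to C09, where single chromosomes had r between 0.184 and 0.271. Gene bodies were not closer in level outside the run. Their median absolute difference was 3.14 percentage points with the run and 5.23 without it, against 4.52 on C01 to C09. In the flanks it was smaller without the run, at 4.58 against 7.84 upstream and 6.32 against 6.60 downstream. The pairs overlap, their flanks may too, and all come from 1 library. The number of valued bins was also correlated between successive members, with an r of 0.672 and a rho of 0.651 over 619 pairs, against 0.678 and 0.443 over 58368 pairs on C01 to C09. Without the run r was 0.614 and rho 0.604.

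Genes on unplaced scaffolds of *B. napus* ZS11, another species, assembly and library, were set beside them. Of the bins of these 3153 genes, 97.7% had no value, against 6.58% for the *B. napus* chromosomes, and no gene had all 12 values. The few levels were above those of the chromosomes in each region. Upstream they averaged 13.8% over 144 genes, against 10.0%. In the gene body they averaged 10.6% over 48 genes, against 4.55%, with medians of 1.17% against 0.727%. Downstream they averaged 14.6% over 113 genes, against 8.32%. The difference between the species was not tested.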

How the data were processed

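Young leaf BS-seq data were analysed, 1 library of *B. oleracea* JZS and 1 of *B. napus* ZS11, grouped by the sample labels. A further library has no unanchored gene identifiers and was not used here. According to the methods, reads were filtered with Fastp and mapped with BatMeth2. Each file deposited by the authors holds methylated fractions from 0 to 1 in 12 bins of each gene, transcript and exon. The coverage, a coverage minimum, the cytosine context and the bin width are not given in the sources used here. Mapping to the ZS11 genome is described in the methods, but the *B. oleracea* identifiers are those of the JZS annotation. Single-exon genes and their exons had the same 12 values, and untranslated region entries of *B. napus* shared bins 1 to 4 with their transcripts in 100% of cases at the 5′ end and bins 9 to 12 in 94.2% at the 3′ end, which gave the direction of the bins. The 12 values of each gene entry were converted to percent, and bins without a value were left out.

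Region levels, shares and spreads were computed with Python 3.11.15, numpy 2.4.6, pandas 2.3.3 and scipy 1.17.1, tested on simulated data, and drawn with matplotlib 3.10.9. Exact Clopper-Pearson intervals cover counting error of genes only. The members, thresholds and lists were chosen with earlier results of these data known.

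Named genes followed a rule. Among members with 12 values these were the 5 with the highest gene body level, the 5 with the highest upstream level and a gene body under 5%, and the 5 with the highest gene body level and both flanks under 5%. The 3 members on either side of the 20% threshold and the ends of the longest stretches without a value and with highly methylated gene bodies were added. Exceptions are marked in the text.

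Alternatives were medians, other requirements on missing bins, bins without a value set to 0, bins at 0 left out, thresholds of 10% and 30%, narrower flanks, restriction by or weighting to coding exons, removal of genes with identical values, gene bodies under 20%, and percentiles. Leaving out the run of 33 genes and weighting to the number of valued bins were added after the data were seen. No sequence is shown, because none of this annotation was used here.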

Additional observations from a re-analysis of the deposited data

Results flagged for a closer look

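The share of valued bins at exactly 0 differed from that of the chromosomes in opposite directions in the 2 species. In *B. oleracea* it was 14.5% in the unanchored genes (408 of 2816 bins) and 18.3% on C01 to C09, a difference of -3.78 percentage points, and -5.95 without the run of 33. In *B. napus* it was 32.6% in the genes on unplaced scaffolds (283 of 869 bins) and 26.0% on the chromosomes, a difference of 6.52. The share at 0 also varied with the number of valued bins. The 869 values of *B. napus* came from 403 genes with 1 to 11 values each. In *B. oleracea* genes with 1 to 3 valued bins it was 36.7% for the unanchored genes against 20.1% on C01 to C09. That was the direction seen in *B. napus*. With 4 to 7, 8 to 11 and 12 valued bins the unanchored shares were 11.7%, 7.16% and 16.6%. On C01 to C09 they were 12.4%, 14.5% and 18.7%, the other direction in each class. The part of valued bins in the difference was not tested. The difference between the species was not tested, and species, library, assembly and annotation cannot be told apart in it.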

How the results depend on the processing

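The main values were mean levels of 13.9% upstream, 13.5% in the gene body and 13.8% downstream, differences from C01 to C09 of 1.22, 4.71 and 2.46 percentage points, and a highly methylated share of 30.6%, 12.3 points above C01 to C09. Of 94 values under 15 settings, 24 stayed within the spread of the chromosomes or the counting interval, 60 were counted as moved and 10 changed sign. The percentile differences, which are in another unit, were counted as moved without a comparison to the spread. The others so counted lay beyond it. With medians the differences were 3.74 upstream, 10.3 in the gene body and 5.74 downstream. Among genes with 12 values the levels were 9.29%, 8.96% and 9.97%, and the differences -2.75, 0.901 and -0.647. The highly methylated share was 22.0% there, 5.74 above C01 to C09, and 16.6% of bins were at 0. With 1 valued bin required, the gene body level was 12.9%, its difference 4.01 and the difference in share 8.71. With bins without a value set to 0, which lowers the unanchored genes by construction, the levels were 5.56%, 4.44% and 5.32% and the differences -6.29, -3.55 and -5.26. The share was then 7.90%, with a difference of -8.28. With bins at 0 left out, the levels were 15.8%, 16.2% and 15.4%, the gene body difference 5.41 and the difference in share 14.8. A threshold of 10% gave a share of 62.1% and a difference of 32.4, and 30% gave 5.96% and -0.885. The 2 flank bins nearest the gene gave differences of 2.32 upstream and 3.51 downstream. Weighting to exon numbers gave 3.83 in the gene body, 1.80 downstream and 9.20 for the share. Genes with at least 2 coding exons had levels of 15.3%, 14.5% and 14.7%, differences of 2.45, 5.32 and 3.17, and 13.3% of bins at 0. Without genes of identical values, 60.3% of bins had no value, 11.8% were at 0, and the gene body level was 14.1% with a difference of 5.30. Gene bodies under 20% left levels of 9.81%, 7.79% and 9.54% and differences of -1.20, 3.59 and 0.418. As percentiles among all genes, the differences were 1.64, 9.46 and 5.39 percentile points. Without the run of 33, 65.6% of bins had no value, 12.3% were at 0, the level was 15.7% in each region, and the differences were 2.97, 6.89 and 4.27, and 17.3 for the share. Weighting to valued bins gave -2.65, 0.523 and -2.55, and 0.907 for the share. Apart from these constructions, the cause of each move was not tested.

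No paired analysis was possible because each species has 1 library. Leaving out a replicate and a coverage minimum were not possible either. The data were limited by the absence of depth per bin and of cytosine contexts, by the 1 library, and by gene body levels in 235 of the 620 members only.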

Other observations

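Among members with all 12 values, a second, shorter stretch of almost unmethylated genes was found, and it was singled out after its values were seen. It held 7 genes with 12 values, from BolCnng004360.2J to BolCnng004420.2J, with a mean of 0.402% over 84 bins, 33 of them at 0. Its highest bin, 10.5%, lay in the downstream flank of its last gene. The first 4 genes of this stretch had 2, 3, 4 and 2 coding exons and 5, 1, 4 and 8 bins at 0. The first 4 genes of the run of 33 had the same exon numbers and 5, 1, 3 and 8 bins at 0. The likeness ended there, and the cut at 4 was made after the values were seen. The other genes of the shorter stretch had 2, 2 and 1 coding exons and 6, 4 and 5 bins at 0. Those in the same places of the run had 1, 1 and 1 coding exon and 4, 0 and 2 bins at 0. Region levels of the first 4 genes were not the same, with gene bodies of 0, 0.206%, 0.0888% and 0 in the shorter stretch and of 0.161%, 0.311%, 0.0419% and 0 in the run. Low levels also followed each other among members with gaps. From BolCnng002320.2J to BolCnng002520.2J no region level exceeded 2.61%, reached upstream of BolCnng002490.2J, although many bins had no value. The next member, BolCnng002540.2J, had 27.0% upstream. These genes were singled out after their values were seen and remain in the set without the run.

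Of the 436 members with any value, 52 (11.9%) had the same values in the same bins as another gene, against 254 of the 56854 such genes of C01 to C09 (0.447%). BolCnng006000.2J and BolCnng006010.2J, for example, both had 57.3% upstream and 33.3% downstream from 4 valued bins, although their coding exons number 4 and 5. They were chosen after their values were seen. Another 36 unanchored identifiers, and 3 of C01 to C09, had coding exon entries but no gene entry and were not counted among the members.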
